A study of Chlamydomonas reinhardtii with 45 samples.

Results

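The transcripts described here come from 10 genes of the inducible carbon-concentrating mechanism of the green alga Chlamydomonas reinhardtii, chosen by gene identifier from 17737 genes in the expression table. Each of the 10 genes has 1 transcript there, and all 10 passed the filter on low values (a TPM, the length-corrected share of a transcript in its library, of at least 1 in at least 3 libraries). They are CAH1 (Cre04.g223100), CAH4 (Cre05.g248400), CAH5 (Cre05.g248450), LCI1 (Cre03.g162800), HLA3 (Cre02.g097800), LCIA (Cre06.g309000), CCP1 (Cre04.g223300), LCIB (Cre10.g452800), LCIC (Cre06.g307500) and LCID (Cre04.g222800). Vegetative haploid cells of the wild-type strain CC-4533 were grown in TAP, a medium that contains acetate, in low continuous light. The treated groups received 100 mM NaCl or 300 mM mannitol, a sugar alcohol that raises osmolarity without added salt, and were collected after 15, 30 or 60 min or 4, 6 or 24 h, with 3 libraries for each of the 12 groups. Untreated cells gave 4 libraries at 24 h and 5 libraries at 0 h. All 45 libraries come from a single strain, and the study's methods state that the time points were drawn from the same flask, so successive times are not separate cultures.

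The carbon-concentrating mechanism moves inorganic carbon from the medium through the plasma membrane and the chloroplast envelope to the pyrenoid, a body in the chloroplast where Rubisco is packed, so that Rubisco works at a raised CO2 level. Carbonic anhydrases interconvert CO2 and bicarbonate along the way, and membrane transporters and channels carry the bicarbonate. The genes followed here are known for being switched on when CO2 is scarce and kept low when CO2 is plentiful, under the regulator CIA5, and acetate in the medium is known to dampen the induction of several of them.

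The libraries differed in ways that bear on every value below. A single transcript, g15293.t1, took 5.33% to 52.3% of the TPM of a library, and TPM is a share, so a lower TPM, less of that RNA per cell and a larger share of other RNA cannot be told apart. The median log2 difference of all 13651 transcripts tested against control 0 h lay between -0.63 (NaCl 30 min) and -0.06 (mannitol 30 min). After scaling each library by its median ratio to the average library it lay between -0.11 and 0.02, and the scaled difference is therefore given beside the one from the deposited values. In addition, 14 libraries carry library numbers of 49 or more (replicate 3 in the NaCl and mannitol groups, replicate 5 in both controls), and they are called the second library series here, although no label names a batch. CAH4 was highest in the second-series library in 14 of 14 groups, by a median of 4.66 times the first-series median, CAH1 and CAH5 in 12 groups, LCIA and CCP1 in 11 and LCID in 10. LCIB was lowest there in 11 of 14 groups. Depth cannot be read from TPM and is unknown.

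Against control 0 h, up to 7 of the 10 transcripts fell within the first hour, and at 4 h none was lower and LCI1 alone was higher. A transcript counts as changed here at a limma adjusted p under 0.01 and a log2 difference beyond 2 of log2(TPM + 1), a scale that understates changes at low TPM. In NaCl, 1 of 10 was lower at 15 min, where 0.396% of all transcripts tested were changed, 5 of 10 were lower at 30 min (3.53% of all) and 4 of 10 at 60 min (8.53%). In mannitol, 7 of 10 were lower at 60 min, against 6.4% of all transcripts. After scaling, 3 of 10 were lower at NaCl 30 min (4.04% of all), 2 at NaCl 60 min (6.03%) and 5 at mannitol 60 min (6.87%). LCI1 was the 1 member higher at 4 h and 6 h in both osmolytes. There 2.26% and 2.16% of all transcripts were changed in NaCl and 0.659% and 0.469% in mannitol. Untreated cells were sampled at 0 h and 24 h only, so at the times between them treatment and time in culture cannot be told apart.

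No member passed limma's test with that fold at mannitol 15 min (0.0366% of all transcripts), mannitol 30 min (0.278%), mannitol 24 h (0.315%) or NaCl 24 h (2.66%), all against control 0 h. At an unadjusted p under 0.05, 0 members passed at mannitol 15 min, 5 at mannitol 30 min, 2 at mannitol 24 h and 4 at NaCl 24 h. In that order, 534, 1474, 2373 and 5603 of all 13651 transcripts tested passed at that level. The share of members was thus close to that of all transcripts in both 24 h groups, and above it at mannitol 30 min. The median log2 difference of the 10 members was -2.25 at NaCl 30 min and -2.70 at mannitol 60 min, beside medians of -0.63 and -0.55 over all transcripts. It was 0.84 at NaCl 4 h and 1.42 at mannitol 4 h, beside -0.34 and -0.19 over all transcripts. After scaling the member medians were -1.48, -2.01, 1.26 and 1.65 in that order, beside -0.11, -0.10, -0.04 and -0.02 over all transcripts.

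**Figure D1:**
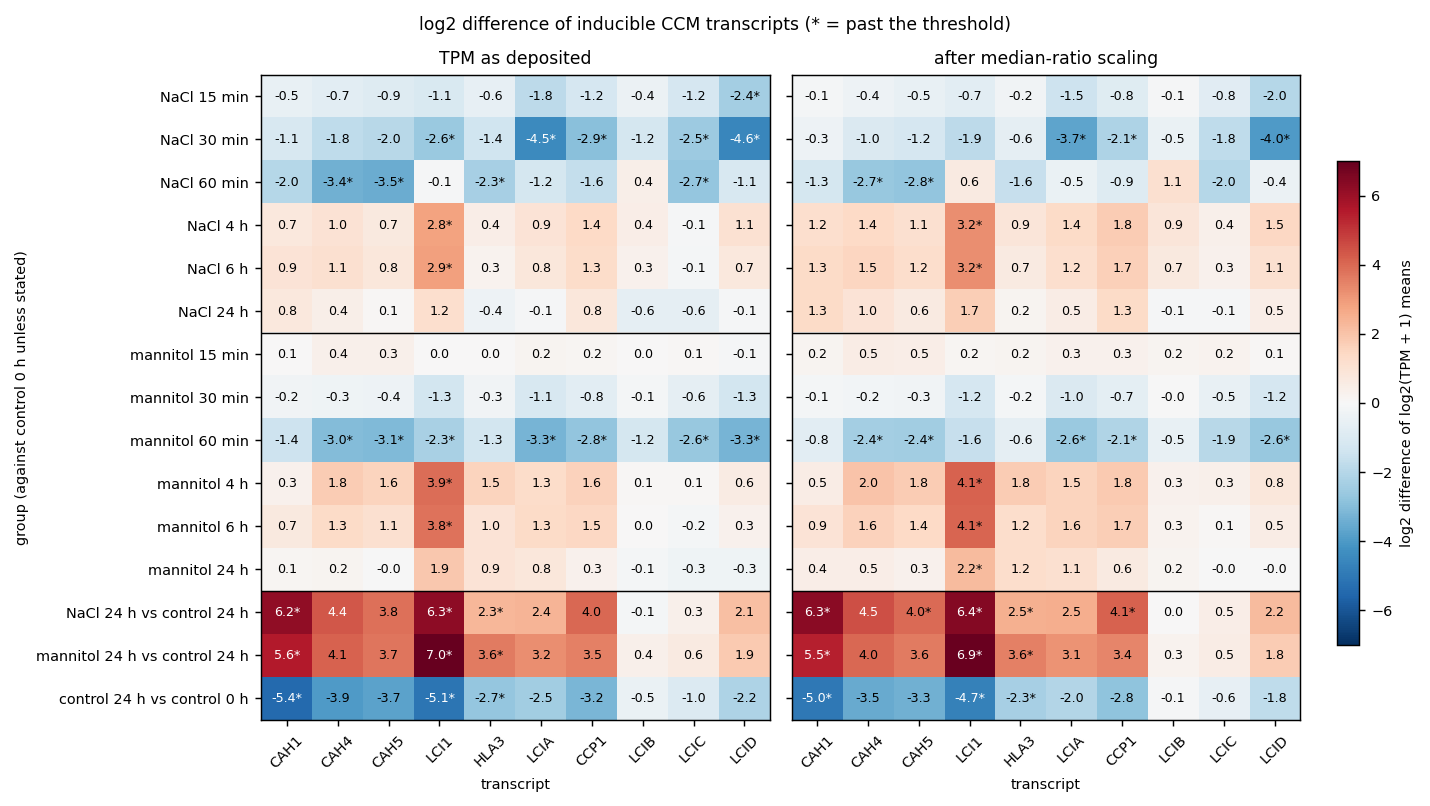
Log2 difference of each of the 10 transcripts (columns) in 15 comparisons (rows), from the deposited TPM on the left and after median-ratio scaling on the right. Blue is lower and red is higher in the group named first, and an asterisk marks an adjusted p under 0.01 with a log2 difference beyond 2. The low block lies at 30 and 60 min in NaCl and at 60 min in mannitol, and LCI1 is the column that is higher at 4 h and 6 h.

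CAH1, the carbonic anhydrase of the periplasm and the most abundant of the 10 transcripts in control 0 h, passed in none of the 12 comparisons of treated cells with control 0 h. Its TPM was 454, 586 and 815 at NaCl 30 min and 263, 296 and 459 at NaCl 60 min, against 882 to 1826 with a median of 1227 in the 5 control 0 h libraries. All 3 NaCl 60 min libraries lay below every control 0 h library, and the log2 difference was -1.98 ± 0.28 (SE, n = 3 and 5), just short of the fold threshold, and -1.25 after scaling. It passed when control 0 h replicate 1, 2 or 4 or NaCl 60 min replicate 3 was left out, which made the count 5. In those fits, in that order, 1056, 1247, 1238 and 1255 of all transcripts were changed, beside 1164 with every library kept. At mannitol 60 min the 3 libraries had 292, 588 and 642 TPM, a log2 difference of -1.44 ± 0.29. By 4 h the level was above that of control 0 h in the mean, with 2265, 1502 and 3058 TPM in NaCl and 1370.4, 1315 and 2239 TPM in mannitol. Those libraries overlapped control 0 h, and the log2 differences of 0.74 ± 0.30 and 0.28 ± 0.29 did not pass.

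CAH4 and CAH5 encode near-identical mitochondrial carbonic anhydrases, and no gene lies between them in the RefSeq order of genes. CAH4 had 13.1, 18.96 and 65.5 TPM at NaCl 60 min and 13.2, 32.2 and 78.8 TPM at mannitol 60 min, against 134 to 876 TPM (median 244) in control 0 h. All 6 treated libraries lay below all 5 controls. The log2 difference was -3.38 ± 0.69 in NaCl (limma adjusted p = 0.0036; scaled -2.66) and -3.04 ± 0.71 in mannitol (adjusted p = 0.007; scaled -2.37). These calls were not firm, since the NaCl adjusted p was 0.0186 without NaCl 60 min replicate 1 and 0.0242 without replicate 2. The mannitol adjusted p was 0.0174 and 0.03 without mannitol 60 min replicates 1 and 2, and 0.0157 and 0.0174 without control 0 h replicates 1 and 3.

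CAH5 followed CAH4 at a lower level. It had 8.53, 15.1 and 29.4 TPM at NaCl 60 min and 8.51, 26.97 and 37.1 TPM at mannitol 60 min, against 111 to 464 TPM (median 168) in control 0 h. The groups did not overlap, and the log2 difference was -3.48 ± 0.46 in NaCl (adjusted p = 4.74e-05; scaled -2.77) and -3.11 ± 0.52 in mannitol (adjusted p = 0.000442; scaled -2.44). At NaCl 30 min, CAH5 stood at -1.96 ± 0.46 and so missed the fold threshold, though it passed without NaCl 30 min replicate 3 or control 0 h replicate 2 or 4. At 4 h, CAH4 reached 339, 299 and 1604 TPM in NaCl and 407, 682 and 3028 TPM in mannitol, and in each treatment the highest value belonged to the second library series. The log2 differences of 0.99 ± 0.74 and 1.78 ± 0.82 for CAH4 from control 0 h did not pass with every library kept. Without control 0 h replicate 5 the mannitol one passed, which made the count 2. In that fit 113 of all transcripts were changed, beside 90 with every library. How reads shared by these copies were counted is not given in the sources used here, so the split between CAH4 and CAH5 is uncertain.

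LCI1, a plasma membrane protein that takes part in inorganic carbon uptake, showed the widest swing of the 10 between its lowest and highest treated groups. It had 5.52, 6.48 and 6.80 TPM at NaCl 30 min, against 32.6 to 55.3 TPM (median 44.97) in control 0 h. The 3 NaCl libraries were all below the controls, with a log2 difference of -2.58 ± 0.26 (adjusted p = 2.43e-07; scaled -1.86, short of the threshold). At NaCl 60 min it was already at 32.3, 44.2 and 45.1 TPM, within the control range, and the log2 difference of -0.07 ± 0.27 turned to 0.64 after scaling. In mannitol the low point came later, with 12.3, 5.76 and 7.25 TPM at 60 min and a log2 difference of -2.26 ± 0.30 (adjusted p = 3.54e-06; scaled -1.60). At mannitol 30 min it passed only without mannitol 30 min replicate 1.

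At 4 h LCI1 stood at 359, 279 and 281 TPM in NaCl and at 484, 758 and 736 TPM in mannitol, and at 6 h at 321, 384 and 251 TPM in NaCl and 619.8, 528 and 694 TPM in mannitol. Every one of these 12 libraries lay above every control 0 h library. The log2 differences were 2.82 ± 0.27 and 2.86 ± 0.26 in NaCl and 3.90 ± 0.31 and 3.82 ± 0.26 in mannitol (adjusted p of 1.26e-06 or below in all 4). They were 3.23, 3.24, 4.12 and 4.07 after scaling. By 24 h LCI1 had 110.1, 74.4 and 107 TPM in NaCl and 123, 142 and 238 TPM in mannitol, still above all control 0 h libraries. The log2 differences of 1.16 ± 0.28 and 1.90 ± 0.31 stayed under the fold threshold, although the mannitol one was 2.20 after scaling and then passed. Without mannitol 24 h replicate 1 it passed too, and the count of members changed was 1. In that fit 49 of all transcripts were changed, beside 43 with every library.

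HLA3, an ABC-type transporter of bicarbonate in the plasma membrane, fell past the threshold only at NaCl 60 min among the 12 comparisons with control 0 h. It had 74.3, 107 and 118 TPM there, against 414 to 652 TPM (median 434) in control 0 h, with no overlap. The log2 difference was -2.32 ± 0.26 (adjusted p = 3.15e-07), but it was -1.59 after scaling. At mannitol 60 min the 131, 286 and 218 TPM lay below the controls as well, at -1.29 ± 0.28. The mannitol libraries were higher than control 0 h at 4 h, with 934, 1999 and 1569 TPM (log2 difference 1.53 ± 0.30, adjusted p = 0.00135, under the fold threshold). In NaCl at 4 h they had 855, 542 and 661 TPM and overlapped the controls.

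LCIA, a chloroplast envelope channel that admits bicarbonate, was lowest at NaCl 30 min. Its TPM was 13.7, 15.9 and 22.7 at NaCl 30 min, against 217 to 690.5 (median 390.5) in control 0 h. The log2 difference was -4.46 ± 0.34 (adjusted p = 2.92e-08; scaled -3.70), and none of the alternative settings run ended that call. At NaCl 15 min it was at 115, 137 and 83.6 TPM, already below all controls at -1.84 ± 0.34. It passed only when control 0 h replicate 2 was left out, which made the count of members lower 2. In that fit 54 of all transcripts were changed, as with every library kept. In mannitol LCIA fell at 60 min, to 42.9, 38.0 and 39.2 TPM, a log2 difference of -3.27 ± 0.32 (adjusted p = 1.24e-07; scaled -2.59). At 4 h it had 689.8, 447 and 1430.5 TPM in NaCl and 523, 1116 and 1596 TPM in mannitol, overlapping control 0 h.

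CCP1, a member of the mitochondrial carrier family, was lowest at the same times as LCIA. It had 27.3, 19.3 and 32.4 TPM at NaCl 30 min and 22.5, 35.4 and 29.5 TPM at mannitol 60 min, against 121 to 319 TPM (median 179) in control 0 h. Neither treated group overlapped the controls. The log2 difference was -2.91 ± 0.30 in NaCl (adjusted p = 3.03e-07; scaled -2.15) and -2.76 ± 0.30 in mannitol (adjusted p = 2.4e-07; scaled -2.09). At 4 h it had 496, 361 and 809.9 TPM in NaCl and 378, 678 and 889 TPM in mannitol, all above the controls. Those log2 differences of 1.39 ± 0.33 and 1.60 ± 0.34 had adjusted p of 0.00408 and 0.00327 but stayed under the fold threshold.

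LCIB and LCIC form a complex that gathers around the pyrenoid at low CO2, and LCID is a relative of LCIB. LCIB was the steadiest of the 10 and passed in none of the 25 comparisons. It had 155, 143 and 173 TPM at NaCl 30 min and 151, 216 and 124 TPM at mannitol 60 min, against 217 to 644 TPM (median 401) in control 0 h. Those log2 differences were -1.25 ± 0.30 and -1.22 ± 0.31. At NaCl 60 min, while LCIC was at its lowest, LCIB had 403, 601 and 486 TPM, a log2 difference of 0.40 ± 0.30 from control 0 h.

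LCIC stayed low through both early NaCl times. It had 85.3, 60.4 and 98.7 TPM at NaCl 30 min and 54.4, 74.95 and 89.4 TPM at NaCl 60 min, against 348 to 705 TPM (median 472) in control 0 h. The log2 differences were -2.55 ± 0.27 (adjusted p = 4.6e-07) and -2.71 ± 0.27 (adjusted p = 6.26e-08). At mannitol 60 min it had 45.96, 109 and 85.6 TPM, at -2.63 ± 0.30 (adjusted p = 3.48e-07). After scaling these were -1.78, -1.98 and -1.94, all short of the threshold.

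LCID was the 1 member past the threshold at NaCl 15 min, and it had the lowest log2 difference of the 10 at NaCl 30 min. It had 12.2, 13.7 and 7.14 TPM at NaCl 15 min, against 31.2 to 93.6 TPM (median 52.7) in control 0 h, a log2 difference of -2.35 ± 0.34 (adjusted p = 0.000307; scaled -1.99, just short). It reached 0.965, 1.21 and 2.48 TPM at NaCl 30 min, at -4.59 ± 0.33 (adjusted p = 6.51e-09; scaled -3.97). In mannitol it was lowest at 60 min, with 6.32, 6.30 and 3.41 TPM, at -3.27 ± 0.34 (adjusted p = 1.59e-07; scaled -2.64). All these libraries lay below all controls.

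**Figure D2:**
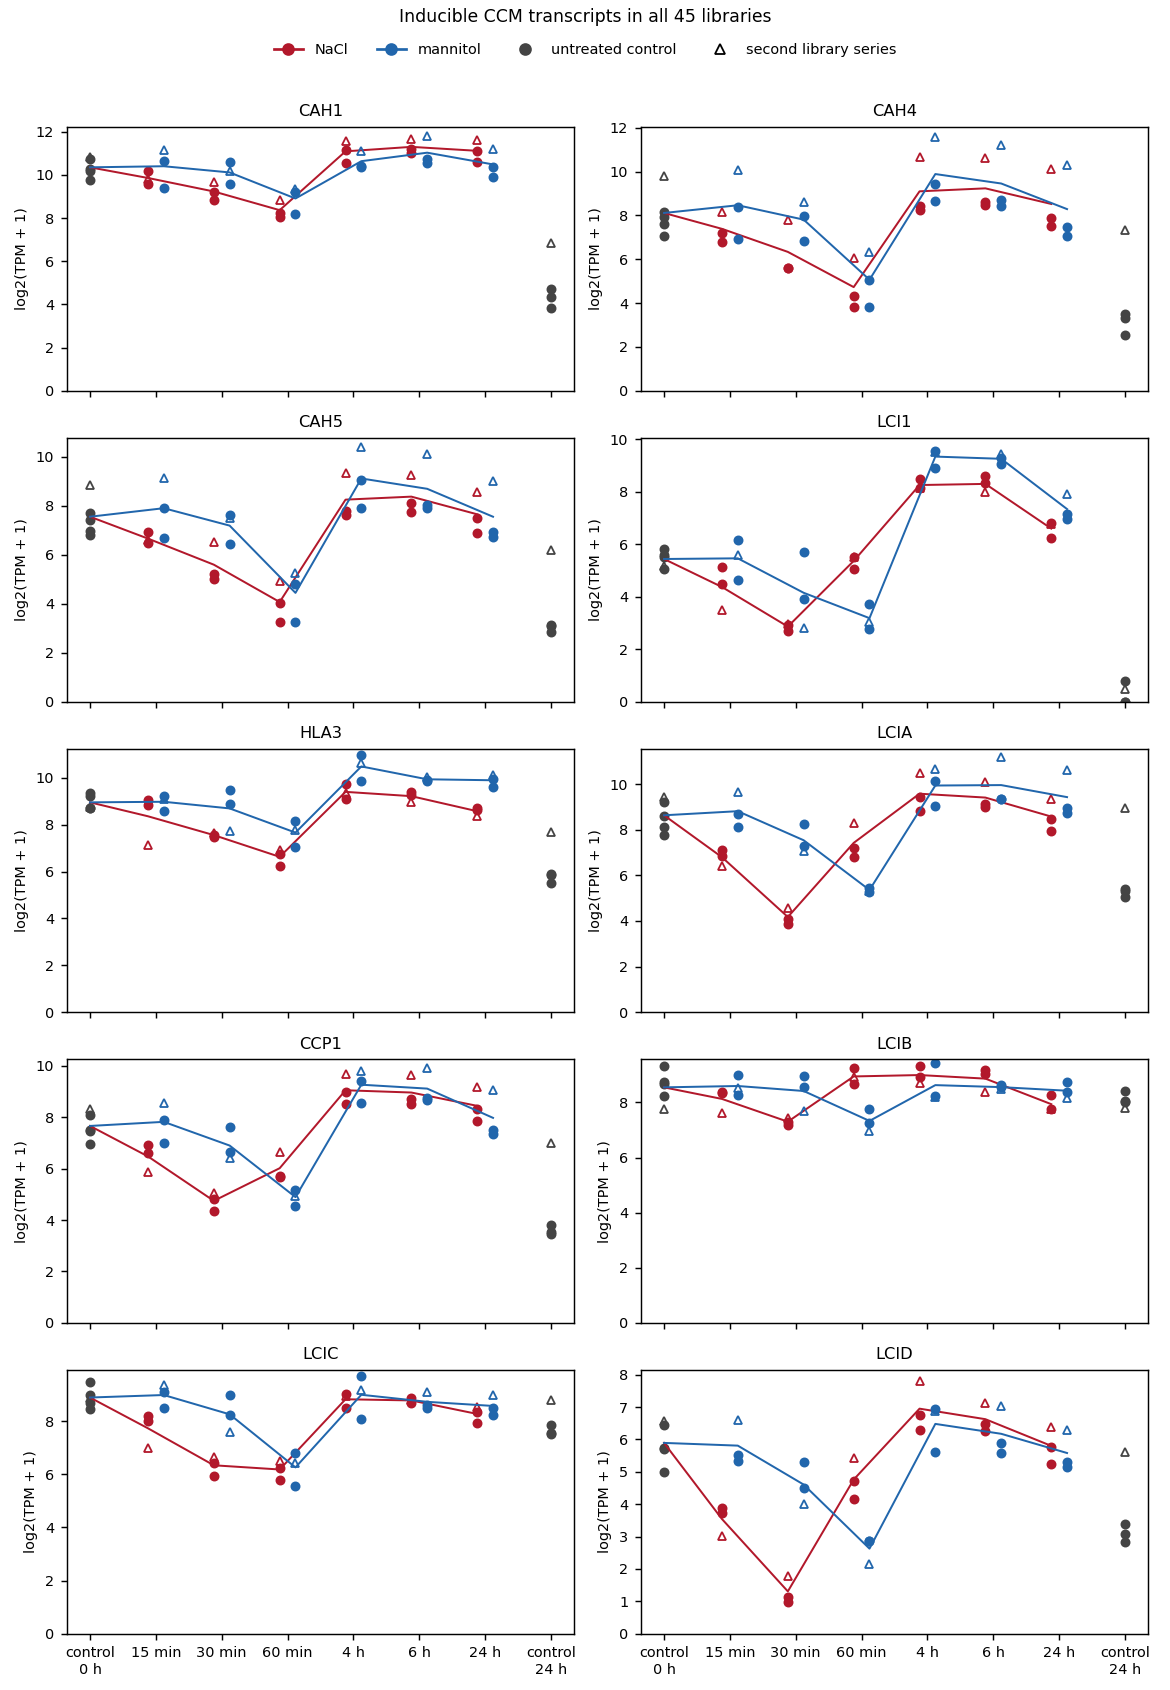
Log2(TPM + 1) of each of the 10 transcripts in all 45 libraries, by time after addition of NaCl (red) or mannitol (blue), with untreated controls (grey) at 0 h on the left and at 24 h on the right. Points are libraries, open triangles are the second library series, and lines join group means on the log2 scale. LCIA, CCP1 and LCID are lowest at 30 min in NaCl and at 60 min in mannitol, whereas CAH4, CAH5 and HLA3 are lowest at 60 min in both among the treated groups.

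The NaCl and mannitol libraries of the same time were compared directly, which asks whether the treatments differ as they were given. The osmolytes were added at different molar doses, and each was used at a single dose. An effect of ions and an effect of osmolarity therefore cannot be told apart in these comparisons. At 15 min, 2 of 10 transcripts were lower in NaCl (0.483% of all transcripts changed), at 30 min 3 were lower (1.41%), and at 60 min 3 were higher (4.38%). LCIA had 13.7 to 22.7 TPM in NaCl and 133 to 302 TPM in mannitol at 30 min, a log2 difference of -3.36 ± 0.31 (scaled -2.71). LCID had 0.965 to 2.48 TPM in NaCl and 15.1 to 38.5 TPM in mannitol at 30 min, at -3.30 ± 0.34 (scaled -2.79). CCP1 had 19.3 to 32.4 TPM in NaCl and 85.1 to 196 TPM in mannitol, at -2.15 ± 0.31, but -1.49 after scaling. In that comparison limma pooled the spread over all transcripts without limit, so the adjusted p from a fit over all 14 groups is given instead, and it was 0.000535 for LCIA, 2.35e-05 for LCID and 0.0063 for CCP1. The 30 min count was 2 without NaCl 30 min replicate 2 or mannitol 30 min replicate 1, 4 without mannitol 30 min replicate 3, and 6 without NaCl 30 min replicate 3. In those fits, in that order, 193, 112, 227 and 257 of all transcripts were changed, beside 192 with every library kept.

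At 60 min the 3 transcripts past the threshold were higher in NaCl, and of the 10 log2 differences 5 were above 0 and 5 below. LCI1 had 32.3 to 45.1 TPM in NaCl and 5.76 to 12.3 TPM in mannitol, a log2 difference of 2.18 ± 0.30 (adjusted p = 1.5e-05; scaled 2.25). LCIA had 109 to 308 TPM in NaCl and 38.0 to 42.9 TPM in mannitol, at 2.06 ± 0.32 (adjusted p = 6.4e-05; 0.0219 in the fit over all 14 groups; scaled 2.11). LCID had 16.7 to 41.9 TPM in NaCl and 3.41 to 6.32 TPM in mannitol, at 2.13 ± 0.33 (adjusted p = 6.02e-05; scaled 2.22). LCIB was higher in NaCl too, by 1.61 ± 0.28, under the fold threshold. CCP1 had 50.6 to 98.2 TPM in NaCl and 22.5 to 35.4 TPM in mannitol, higher without overlap but not past the threshold. CAH1, CAH4, CAH5 and LCIC overlapped between the osmolytes. HLA3 went the other way, with 74.3 to 118 TPM in NaCl and 131 to 286 TPM in mannitol and no overlap, at -1.03 ± 0.30 (adjusted p = 0.0106, not past the threshold). The 60 min count was 1 without NaCl 60 min replicate 3, and 2 without mannitol 60 min replicate 2 or 3. In those fits 643, 492 and 644 of all transcripts were changed, beside 598 with every library kept.

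The 15 min result was the least firm. LCIA had 83.6 to 137 TPM in NaCl and 274 to 806 TPM in mannitol, at -2.02 ± 0.40 (adjusted p = 0.00236), but -1.80 after scaling (adjusted p = 0.0143), which did not pass. LCID had 7.14 to 13.7 TPM in NaCl and 39.2 to 95.4 TPM in mannitol, at -2.27 ± 0.36 (adjusted p = 0.000276; scaled -2.05, still past the threshold). In the fit over all 14 groups the LCIA adjusted p was 0.108. Neither passed without mannitol 15 min replicate 2 or without replicate 3, and LCIA alone was lost without NaCl 15 min replicate 3. No member passed both the limma adjusted p and fold threshold at 4 h (0.418% of all transcripts), 6 h (0.41%) or 24 h (1.74%). At each of these times 2 members had an unadjusted p under 0.05. In that order, 2352, 2344 and 3123 of all 13651 transcripts tested did so. The share of members was therefore close to that of all transcripts. LCI1 and HLA3 were the 2 members at each time, and in all 3 comparisons the NaCl libraries lay below the mannitol libraries for both. At 24 h HLA3 passed the limma adjusted p (0.00856) with a log2 difference of -1.32 ± 0.35, under the fold threshold (scaled -1.07, adjusted p = 0.0181).

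The steps between times showed the fall and the return within each osmolyte. From NaCl 30 min to NaCl 60 min, 3 of 10 transcripts were higher at the later time (1.05% of all transcripts changed). These were LCI1 by 2.50 ± 0.20, LCIA by 3.25 ± 0.34 and LCID by 3.46 ± 0.32 (adjusted p = 4.14e-05, 0.000138 and 8.56e-05). Over the same step CAH4 stood at -1.61 ± 0.62, CAH5 at -1.52 ± 0.44 and HLA3 at -0.93 ± 0.21, none past the threshold, although CAH4 passed without NaCl 60 min replicate 3. At NaCl 4 h, 9 of 10 were higher than at NaCl 60 min (1.59% of all), LCIB being the exception at 0.05 ± 0.29. The increases ran from 2.16 ± 0.47 for LCIA to 4.37 ± 0.74 for CAH4. After scaling LCIA and LCID were at 1.84 and 1.89 and did not pass. The count of 9 became 6 without NaCl 60 min replicate 1 or 2 or NaCl 4 h replicate 3, and 7 without NaCl 4 h replicate 1. In those fits, in that order, 193, 214, 222 and 185 of all transcripts were changed, beside 217 with every library kept.

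In mannitol, 4 of 10 were lower at 60 min than at 30 min (2.34% of all transcripts), namely CAH4, CAH5, LCIA and CCP1, by log2 differences of -2.74, -2.75, -2.18 and -2.003. In the fit over all 14 groups, used because the spread was again pooled without limit, the adjusted p was 0.0439 for CAH4, 0.00698 for CAH5, 0.0125 for LCIA and 0.00832 for CCP1, so CAH4 and LCIA did not pass. After scaling only CAH5 passed, at -2.17. The count was 1 without mannitol 30 min replicate 1, which had the highest TPM of its group for every member but CAH4. It was 5 without mannitol 60 min replicate 3, and 6 without mannitol 30 min replicate 2 or 3 or mannitol 60 min replicate 2. In those fits, in that order, 169, 375, 615, 345 and 517 of all transcripts were changed, beside 320 with every library kept. At mannitol 4 h, 8 of 10 were higher than at mannitol 60 min (4.96% of all), and scaling left 8. CAH4 was lost without mannitol 4 h replicate 2. LCI1 rose most, by 6.16 ± 0.37 (adjusted p = 9.17e-14 in the fit over all 14 groups), with 484 to 758 TPM at 4 h and 5.76 to 12.3 TPM at 60 min. CAH1 and LCIB were the members that missed the fold threshold, at 1.73 ± 0.35 and 1.30 ± 0.36. Without the filter on low values, 2 of the 24 calls over the 4 steps and 0 of the 8 between the osmolytes passed, with the same fold differences.

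The controls themselves moved between 0 h and 24 h, and the 24 h treated groups are therefore set against untreated cells of the same age. CAH1 had 13.1, 25.7, 19.02 and 113 TPM in control 24 h, against 882 to 1826 TPM in control 0 h, a log2 difference of -5.42 ± 0.51 (adjusted p = 0.000141; scaled -5.02). LCI1 had 0, 0, 0.732 and 0.406 TPM in control 24 h, against 32.6 to 55.3 TPM in control 0 h, at -5.11 ± 0.25. HLA3 had 44.96, 59.3, 57.2 and 205 TPM in control 24 h, against 414 to 652 TPM in control 0 h, at -2.71 ± 0.36 (adjusted p = 0.00052; scaled -2.30). These 3 of 10 were lower at 24 h, where 0.396% of all transcripts were changed. The fold of LCI1 depends on the pseudocount, being -7.38 with 0.1 in place of 1.

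How many more passed depended on control 24 h replicate 5, from the second library series, and on the model fitted. CAH4 had 4.81, 10.3, 8.84 and 159 TPM in control 24 h, LCIA 31.7, 40.9, 39.1 and 499 TPM, and CCP1 10.5, 13.1, 9.92 and 125 TPM, the last value being that library in each case. Without it, 8 of 10 transcripts were lower in control 24 h than in control 0 h, all but LCIB and LCIC, and 0.527% of all transcripts were changed. With that library kept, a fit with the replicate number as a block also gave 8 (0.418% of all). LCIB had 220.2 to 343 TPM in control 24 h, against 217 to 644 TPM in control 0 h, and the groups overlapped.

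At 24 h the median log2 difference of the 10 members was 3.12 in NaCl and 3.59 in mannitol against control 24 h, beside -0.10 and 0.08 over all transcripts. Against control 0 h it was 0.02 and 0.16. After scaling the member medians were 3.27, 3.49, 0.57 and 0.46 in that order. CAH1 had 2229, 1553 and 3165 TPM at NaCl 24 h and 1309, 959.5 and 2349.8 TPM at mannitol 24 h, against 13.1 to 113 TPM in control 24 h. All treated libraries lay above all controls, and the log2 difference was 6.19 ± 0.63 in NaCl (adjusted p = 0.000127; scaled 6.34) and 5.56 ± 0.63 in mannitol (adjusted p = 0.00161; scaled 5.46). LCI1 had 74.4 to 110.1 TPM at NaCl 24 h and 123 to 238 TPM at mannitol 24 h, against 0 to 0.732 TPM in control 24 h, at 6.27 ± 0.29 and 7.02 ± 0.31. With a pseudocount of 0.1 those were 8.55 and 9.30. HLA3 had 414, 399 and 332 TPM at NaCl 24 h and 993, 773 and 1119 TPM at mannitol 24 h, against 44.96 to 205 TPM in control 24 h, at 2.33 ± 0.44 (adjusted p = 0.00307) and 3.65 ± 0.44 (adjusted p = 0.00123).

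In each osmolyte 3 of 10 were higher than in control 24 h, where 2.79% of all transcripts were changed in NaCl and 0.52% in mannitol. After scaling, 5 were higher in NaCl (3% of all), with CAH5 and CCP1 added. Without control 24 h replicate 5, 8 of 10 were higher in NaCl (3.19% of all transcripts changed) and 7 of 10 in mannitol (0.755%). The mannitol count was 1 without mannitol 24 h replicate 1, and 2 without mannitol 24 h replicate 2 or 3 or control 24 h replicate 3 or 4. In those fits, in that order, 30, 48, 62, 58 and 57 of all transcripts were changed, beside 71 with every library kept. The NaCl count was 2 without NaCl 24 h replicate 1 or 2 or control 24 h replicate 3 or 4, HLA3 being the call lost. There 374, 405, 380 and 371 of all transcripts were changed, beside 381 with every library kept. LCIB and LCIC overlapped control 24 h in both osmolytes.

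**Figure D3:**
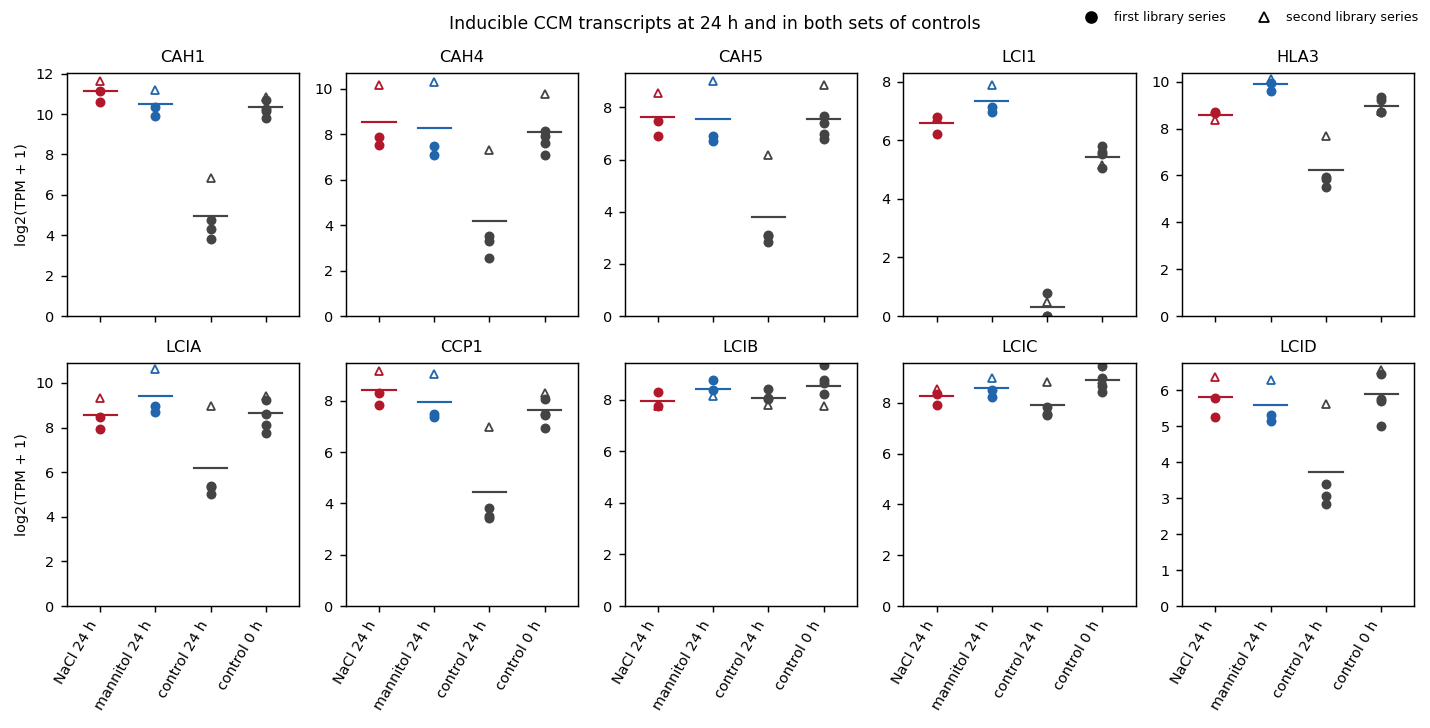
Log2(TPM + 1) of the 10 transcripts at NaCl 24 h, mannitol 24 h, control 24 h and control 0 h. Points are libraries, open triangles the second library series, and bars the group means on the log2 scale. CAH1, CAH5, LCI1, HLA3 and CCP1 separate the treated libraries from control 24 h without overlap in both osmolytes, and CAH4 in NaCl alone. The control 24 h triangle stands above the other 3 controls for every transcript but LCI1 and LCIB.

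Ratios within a library do not depend on the scaling. The ratio of LCIB to LCIC was 7.40, 8.02 and 5.44 at NaCl 60 min, with a mean of 6.95 ± 1.35 (SD, n = 3), against 0.814 ± 0.205 in control 0 h (SD, n = 5). It was 1.98 ± 0.336 at NaCl 30 min and 2.24 ± 0.949 at mannitol 60 min, and at NaCl 4 h it was back at 1.14 ± 0.258. The ratio of LCI1 to HLA3, both at the plasma membrane, was 0.410 ± 0.0269 at NaCl 60 min and 0.0490 ± 0.0392 at mannitol 60 min, against 0.0861 ± 0.0129 in control 0 h. At 6 h it reached 0.529 ± 0.0385 in NaCl and 0.625 ± 0.0517 in mannitol. These pairs were picked after their values were seen and carry no test.

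**Figure D4:**
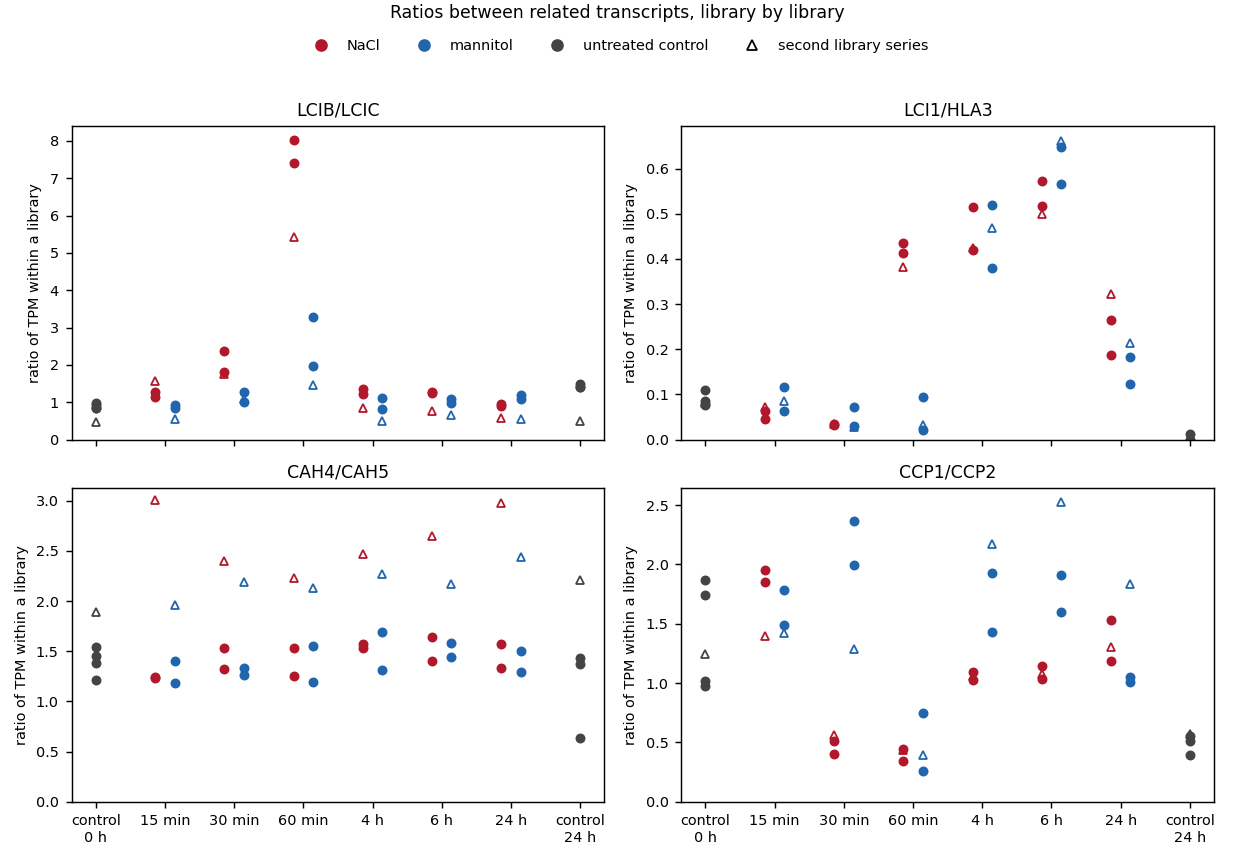
Ratio of TPM between paired transcripts in each library, by time in NaCl (red) and mannitol (blue), with untreated controls (grey) at 0 h and 24 h. Open triangles are the second library series. LCIB to LCIC peaks at NaCl 60 min with 5.44 to 8.02, and CAH4 to CAH5 is highest in the second-series library of every group.

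The scale of these levels can be read from RBCS2, a Rubisco small subunit gene with an abundant message. TPM is corrected for length, so levels of different genes can be roughly compared. How reads matching several genes were treated is not given, so the level of any gene with close copies is uncertain. CAH1 stood at 1.19 ± 0.0484 times the TPM of RBCS2 at NaCl 24 h and 0.666 ± 0.0639 times at mannitol 24 h (SD, n = 3 each). It stood at 0.0105 ± 0.00979 times in control 24 h (SD, n = 4) and at 0.326 ± 0.0599 times in control 0 h (SD, n = 5). RBCS2 had 1249.8 to 2746 TPM at NaCl 24 h, against 3195 to 4509 TPM in control 24 h, so both terms of that ratio differed.

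In control 0 h, the mean levels ran from CAH1 at 1353 ± 391 TPM (SD, n = 5) through HLA3 at 504 ± 113, LCIC at 486 ± 136, LCIA at 434 ± 203, LCIB at 398 ± 162, CAH4 at 346 ± 301, CAH5 at 214 ± 144 and CCP1 at 212 ± 79.8 to LCID at 63.1 ± 26.4 and LCI1 at 43.1 ± 9.32. From HLA3 to CCP1, and between LCID and LCI1, neighbours in this order differed by less than the larger of their SDs. At 4 h LCI1 had left the bottom of that order, with 307 ± 45.7 TPM in NaCl and 659.8 ± 152 TPM in mannitol (SD, n = 3 each), above LCID at 136 ± 76.2 and 95.8 ± 41.4 TPM.

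Close relatives did not all follow the members. CAH2, the neighbour of CAH1 and a carbonic anhydrase known for the opposite response to CO2, stayed between 0 and 8.39 TPM. Its highest values were 4.71, 8.39 and 7.92 TPM at mannitol 60 min, when CAH1 was at its lowest in that osmolyte, and at NaCl 60 min it had 0.296, 0.724 and 0 TPM. LCIE, the neighbour of CCP1 and a relative of LCIB, had 24.5, 15.2 and 21.9 TPM at NaCl 4 h and 13.6, 25.9 and 14.7 TPM at mannitol 4 h, against 0 to 1.92 TPM in control 0 h. Its log2 differences were 3.37 ± 0.34 (adjusted p = 6.57e-07; scaled 3.57) and 3.17 ± 0.35 (adjusted p = 6.7e-07; scaled 3.19), and at 6 h it was 3.14 higher in both. CCP2, the neighbour of LCID and a near copy of CCP1, had 48.3 to 57.6 TPM at NaCl 30 min, against 69.9 to 266 TPM in control 0 h, and was called in no comparison with control 0 h on the deposited scale. The ratio of CCP1 to CCP2 was 0.492 ± 0.0829 at NaCl 30 min, against 1.37 ± 0.414 in control 0 h. Reads shared by such copies may be split between them, so these levels are uncertain.

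In a wider list of 19 other genes of the mechanism, 14 had a transcript in the table and 13 were tested. CIA5, LCR1, LCI9, SAGA1 and SAGA2 were not analysed here. In at least 1 comparison with control 0 h, LCIE was higher and CAH8, BST1, EPYC1 and CAH6 were lower. CAH8, a carbonic anhydrase, had 6.75, 4.49 and 4.60 TPM at NaCl 24 h, against 46.1 to 72.1 TPM in control 0 h, a log2 difference of -3.10 ± 0.29 (adjusted p = 2.06e-08; scaled -2.58). It was also lower at NaCl 30 min, 4 h and 6 h, by -2.14, -2.29 and -2.24, none past the threshold after scaling. At NaCl 24 h it was lower than in mannitol as well, where it had 23.1 to 46.6 TPM (log2 difference -2.54 ± 0.36).

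BST1, a bestrophin-like protein of the thylakoid linked to bicarbonate transport, had 3.51, 4.24 and 6.08 TPM at NaCl 30 min and 7.50, 7.96 and 4.99 TPM at mannitol 60 min, against 20.8 to 61.2 TPM in control 0 h. Its log2 differences were -2.49 ± 0.31 and -2.01 ± 0.33, at the same times as the low points of LCIA, CCP1 and LCID. EPYC1, the linker that gathers Rubisco in the pyrenoid, had 34.996, 44.02 and 94.5 TPM at NaCl 60 min, against 142 to 311 TPM in control 0 h (-2.03 ± 0.33). CAH6, another carbonic anhydrase, had 20.8, 17.5 and 16.2 TPM at NaCl 24 h, against 74.0 to 123 TPM in control 0 h (-2.24 ± 0.28). After scaling the BST1, EPYC1 and CAH6 differences lay between -1.79 and -1.31 and did not pass.

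The profiles of the 10 transcripts over the 14 group means were alike to different degrees, which is a description only, as the points share libraries and scaling. Pearson's r over the 45 pairs ran from 0.335 (CAH1 with LCIB) to 0.998 (CAH4 with CAH5), with a median of 0.817. After scaling the lowest was 0.180 (HLA3 with LCIB) and the median 0.796. LCIA and LCID had r = 0.973. The transcripts closest to the mean profile of the 10 were g4407.t1 (r = 0.974), Cre16.g685000.t1.2 (0.967), g11547.t1 (0.964), Cre16.g684022.t1.2 (0.963) and Cre17.g720400.t1.3 (0.959). The last was also closest to LCI1 (0.977). The closest to LCIA and to LCID was 1 transcript, Cre03.g168100.t1.2 (0.987 and 0.979). The closest to CAH1 was Cre10.g426800.t1.3 (0.905), to HLA3 Cre07.g334750.t1.3 (0.9703), to CCP1 Cre16.g684022.t1.2 (0.975), to LCIB Cre12.g518150.t1.3 (0.944) and to LCIC Cre01.g042850.t1.2 (0.979), while CAH4 and CAH5 were closest to each other. After scaling, the closest to LCI1 was Cre01.g053950.t1.3 (0.979) and to LCIC Cre13.g583150.t1.1 (0.972), and Cre07.g334750.t1.3 (0.9404) replaced Cre17.g720400.t1.3 among the 5 closest to the mean profile.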

How the data were processed

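Expression was measured by mRNA sequencing in 45 libraries of 14 groups. The authors aligned single-end reads with BWA to genome version 5.6 and deposited 1 table of TPM per transcript, each library summing to 1e+06. How TPM was computed and how reads matching several genes were treated are not given in the sources used here. Groups came from the sample labels. The study's methods describe biological replicates, with algae for transcriptomics grown on different days, but no source used here ties a library to a day. From 19526 transcripts (1 line without values was left out), 13651 with TPM of at least 1 in at least 3 libraries were tested on log2(TPM + 1) with limma 3.58.1 in R 4.3.3 (moderated variances with trend and robust options, Benjamini-Hochberg adjustment over all tested, 1 fit for each of 25 comparisons). A call needed an adjusted p under 0.01 and a log2 difference beyond 2. In 3 comparisons (NaCl against mannitol at 30 min, mannitol 60 min against 30 min, mannitol 4 h against 60 min) the prior degrees of freedom were infinite.

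Members and gene lists were chosen with earlier results of these data known. The text names all members, their close relatives, genes of the wider list called against control 0 h, RBCS2, and the transcripts closest in profile by Pearson's r. Gene order came from RefSeq's annotation of assembly v5.5, which matched 10 of 10 members and was used for neighbours only. Deviations from the group mean correlated above 0.1 in every same-numbered pair for NaCl against mannitol at 4 h, 6 h and 24 h. That also held for NaCl 60 min against 30 min and for control 24 h against 0 h (0.137 to 0.699 over 4 pairs). The same-numbered library was the closest match in 1, 2, 3 and 2 of 3 pairs and in 2 of 4, in that order. Replicate numbers therefore need not pair the libraries. Alternatives were median-ratio and quantile scaling, other pseudocounts, filters and thresholds, a joint fit, blocks for replicate number and library series, and leaving out each library. Figures were drawn with matplotlib 3.10.9.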

Additional observations from a re-analysis of the deposited data

Results flagged for a closer look

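Each of the 10 members was examined in both controls, and in 9 of these 20 sets of values 1 library stood far from the rest. The criterion picks about 1 in 20 independent sets by chance, but these sets are not independent: all 9 are the same 2 libraries, replicate 5 of each control, read on members whose profiles are correlated, so the count cannot be set against that rate. In control 24 h that library had 113 TPM of CAH1, 159 of CAH4, 71.8 of CAH5, 205 of HLA3, 499 of LCIA, 125 of CCP1 and 47.8 of LCID. In control 0 h it had 876 TPM of CAH4 and 464 of CAH5. Whether library preparation or culture differed for that series was not tested.

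In the direct test of NaCl against mannitol at matched times, 2 members were called at 15 min (0.483% of all transcripts), 3 at 30 min (1.41%) and 3 at 60 min (4.38%), and none at 4, 6 or 24 h. After median-ratio scaling the counts were 1, 2 and 3, and in the joint fit over 14 groups 1, 3 and 2, in order of time. At 15 min 0 were left without mannitol 15 min replicate 2 or 3, where 22 and 73 of all transcripts were changed, beside 66 with every library kept. The direction was lower in NaCl at 15 and 30 min and higher in NaCl at 60 min.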

How the results depend on the processing

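As deposited, 12 calls of members were made for NaCl and 9 for mannitol against control 0 h, 8 for NaCl against mannitol, 24 over the 4 steps in time, and 3 each for control 24 h against 0 h, NaCl 24 h against control 24 h and mannitol 24 h against control 24 h. Of the 62 single calls none changed sign under any alternative. Over all alternatives 1104 values kept their call and 131 lost it, 37 of these without a filter on low values. Median-ratio scaling gave 7 for NaCl against control 0 h and 5 for NaCl 24 h against control 24 h, where quantile scaling gave 6 and variances without trend and robust options gave 5. Leaving out g15293.t1 and g15294.t1 gave 5 for NaCl against mannitol, 5 for control 24 h against 0 h and 6 for NaCl 24 h against control 24 h. With no filter, NaCl against mannitol had 0, mannitol 24 h against control 24 h 1 and the steps 2. A log2 threshold of 1 gave 22, 15 and 17 for NaCl against control 0 h, mannitol against control 0 h and NaCl against mannitol, while the share of all transcripts called ranged over 2.51% to 36.4%, 0.0806% to 37.5% and 0.806% to 25.7%. An adjusted p under 0.05 gave 6 for control 24 h against 0 h and 6 for NaCl 24 h against control 24 h. For control 24 h against 0 h, NaCl 24 h and mannitol 24 h against control 24 h, in that order, the joint fit gave 8, 8 and 6, the library series block 7, 6 and 7, and the first library series alone, chosen after seeing the data, 8, 8 and 8. The cause of these differences in count was not tested. The share of all transcripts changed under the joint fit, the series block and the first series alone is not given here. Those member counts therefore cannot be set against it.

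With the replicate block the counts for control 24 h against 0 h, NaCl 24 h and mannitol 24 h against control 24 h were 8, 6 and 0. No other total moved by over 1.5 times. Only in the first of those 3 comparisons did the deviations of every same-numbered pair correlate above 0.1. Leaving out 1 library at a time gave 11 to 15 calls for NaCl against control 0 h, 8 to 10 for mannitol against control 0 h, 6 to 11 for NaCl against mannitol, 21 to 26 over the steps, 3 to 8 for control 24 h against 0 h, 2 to 8 for NaCl 24 h and 1 to 7 for mannitol 24 h against control 24 h. The low members, LCI1 and LCIE in controls, are limited by an unknown read depth.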

Other observations

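The ratio of CAH4 to CAH5 separated the library series without overlap. It lay between 1.89 and 3.01 (median 2.25) in the 14 libraries of the second series and between 0.632 and 1.70 (median 1.40) in the 31 libraries of the first, and the second-series library was highest in 14 of 14 groups. The ratio of LCIB to LCIC was lowest in the second-series library in 12 of 14 groups. The ratio of LCI1 to HLA3 was highest there in 4 groups and lowest in 3.

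The summed TPM of the 10 members was 1253 ± 355 at NaCl 30 min, 1112 ± 336 at mannitol 60 min and 8684 ± 3708 at mannitol 4 h (SD, n = 3 each), against 4053 ± 1072 in control 0 h (SD, n = 5).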
